A study of Mus musculus with 4 samples.

Results

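Ribosomal proteins and translation factors are the genes of the protein-making machinery. They were chosen by name alone, as the genes whose symbol starts with Rpl or Rps and a digit, Rplp, Rpsa, Eif and a digit, or Eef and a digit, without the Rps6k kinases, Eif2s3y and Eif2s3x. Only probes listed with a single gene were taken, and the probes of a gene were averaged. This gave 54 genes on 56 probes, out of 6025 named genes and 9480 probes. They comprise 25 ribosomal protein genes, 23 initiation factors and their regulators, and 6 elongation factors and their modifying enzymes. Rplp0, Eef1a2, Eif4g1, Eif2s1 and Eif6 are not among them, so the machinery was measured only in part.

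Total RNA of embryonic stem (ES) cells of the mouse was compared on 4 cDNA arrays, each read in a pair of dyes. Replicates 1 and 2 of fosBd/d set a line homozygous for the fosBd/d allele, which encodes only ΔFosB, against wild-type cells, and replicates 1 and 2 of fosB-null set a fosB-null line against wild-type cells. FosB is a serum-induced subunit of the AP-1 transcription factor, and ΔFosB is its truncated form. All cells, wild type included, were grown without feeders, kept for 72 h in serum starvation and then stimulated with serum for 4 h. In replicate 1 of each mutant the mutant carried Cy3, and in replicate 2 it carried Cy5. The number of clones per line is not given in the sources used here. The labels do not say whether both arrays of a swap shared RNA extracts. P-values and intervals therefore rest on spread between arrays only, and that spread may be technical. A dye term in the fit takes up the gap between the arrays of a swap that both swaps share. The p-values and intervals do not cover that shared gap.

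The ribosome has a small subunit that reads the messenger and a large subunit that joins amino acids, and its proteins are made in balanced amounts. Initiation factors bring the messenger, the initiator tRNA and the small subunit together. Elongation factors then deliver aminoacyl-tRNA and move the ribosome along. Serum growth factors act on this machinery chiefly through mTOR, which relieves the block that Eif4ebp1 puts on the cap-binding protein Eif4e and, through S6 kinases, leads to phosphorylation of Rps6. Messengers of ribosomal proteins and of several translation factors begin with a C and a run of pyrimidines, the terminal oligopyrimidine tract, through which their translation follows growth signals.

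That tract is a feature of sequence that the naming rule did not use. The windows printed here show pyrimidine runs near annotated starts. Runs beginning up to 10 bases away were accepted, so the windows do not show which messengers begin with the tract. Start sites came from RefSeq (GRCm38.p6), where 39 of the 54 genes were matched. Each window runs from 10 bases before to 20 bases from an annotated start, on the strand of the gene. The capitals mark a C followed by at least 5 letters that are all C or T, beginning within 10 bases of the start. For a gene with several annotated starts, the first listed start with such a run was taken, or the first listed if none had it. Annotated starts can differ from the start used in these cells.
Rps6, chr4:86857348-86857377, minus strand: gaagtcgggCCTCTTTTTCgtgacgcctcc
Rps15a, chr7:118116128-118116157, minus strand: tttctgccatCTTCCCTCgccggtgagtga
Rps26, chr10:128626487-128626516, minus strand: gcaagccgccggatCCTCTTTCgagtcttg
Rpl13a, chr7:45128726-45128755, minus strand: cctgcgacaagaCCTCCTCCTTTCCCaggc
Rpl35a, chr16:33056472-33056501, plus strand: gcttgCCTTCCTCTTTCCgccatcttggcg
Rplp2, chr7:141447641-141447670, plus strand: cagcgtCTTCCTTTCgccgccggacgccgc
Eef1a1, chr9:78481705-78481734, minus strand: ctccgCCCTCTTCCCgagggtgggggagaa
Eif3f, chr7:108934405-108934434, plus strand: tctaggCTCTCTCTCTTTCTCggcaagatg
Eif4g3, chr4:137993445-137993474, plus strand: tccgagcggccgtcctgccggactgctgga
Eif2b4, chr5:31193120-31193149, minus strand: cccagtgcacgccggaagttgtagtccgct
A gene was counted if any of its annotated starts had the run. It was found in 13 of 17 matched ribosomal protein genes (76.5%), 4 of 18 initiation factors (22.2%) and 2 of 4 elongation genes (50.0%). Over the 4772 named genes with a start site the share was 24.0%, and over all genes of the promoter table it was 21.9%. The last 2 genes printed hold no such run in this window.

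Each value is the log ratio of the channels of 1 array, turned to log2, so it carries no level, and levels are not compared between genes. Which way the ratios run is not settled. Zeros with a minus sign, the trace of a column multiplied by -1, occurred on fosBd/d replicate 1 and fosB-null replicate 2 alone, so each swap seems to have been brought to a common direction by the depositors. Arrays with the mutant in the same dye correlated negatively over the 9480 probes, with r = -0.463 between the replicates 1 and r = -0.369 between the replicates 2. The arrays of a swap also correlated negatively, at r = -0.125 in fosBd/d and r = -0.318 in fosB-null, so each mean joins arrays that disagreed. The remaining pairs stood at 0.336 and 0.326. With the multiplication by -1 undone every pair correlated positively, from 0.125 to 0.463. The negative r between arrays of the same dye goes with their opposite turning, and does not settle the direction. Read by dye name, positive values stand for more RNA in fosBd/d, which is called likely here, and for less RNA in fosB-null. If both mutants were set over wild type the fosB-null reading would turn, and by the colour words in the labels fosBd/d would turn. For fosB-null the sign alone is therefore given. The annotation listed 0 probes for Fosb, so the targeted gene itself was not analysed here.

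In fosBd/d cells the 54 genes as a set lay close to wild type. The median of the 54 mean log2 ratios was -0.07, with quartiles of -0.19 and 0.06, beside a median of -0.02 and quartiles of -0.26 and 0.22 over all 8939 features (gene averages, and probes with several genes or none). On replicates 1 and 2 alone the median of the members was -0.0058 and -0.0253. Means ran from -0.80 to 0.56, 21 were positive and 33 negative, and 53 of 54 were within 1.5-fold of wild type, against 83.4% of all features. In limma 0 of 54 members passed an adjusted p of 0.05 (background 0.0%), with adjusted p values from 0.295 to 0.979. With 1 residual degree of freedom the fit passed no feature at all, so this count does not show that the members were unchanged. At an unadjusted p under 0.05 there were 3 of 54, beside 16.0% of all features. The 95% confidence interval lay inside a 2-fold change either way for 52 of 54 members, against 67.9% of all features. Its median half-width was 0.35 on the log2 scale, or 1.28-fold. These intervals leave out the gap between arrays that went to the dye term. Rpl8, for example, had an SD of 0.78 between its fosBd/d arrays and an interval from -0.49 to 0.45. In such bulk RNA, fewer cells of a type and less RNA per cell cannot be told apart.

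**Figure D1:**
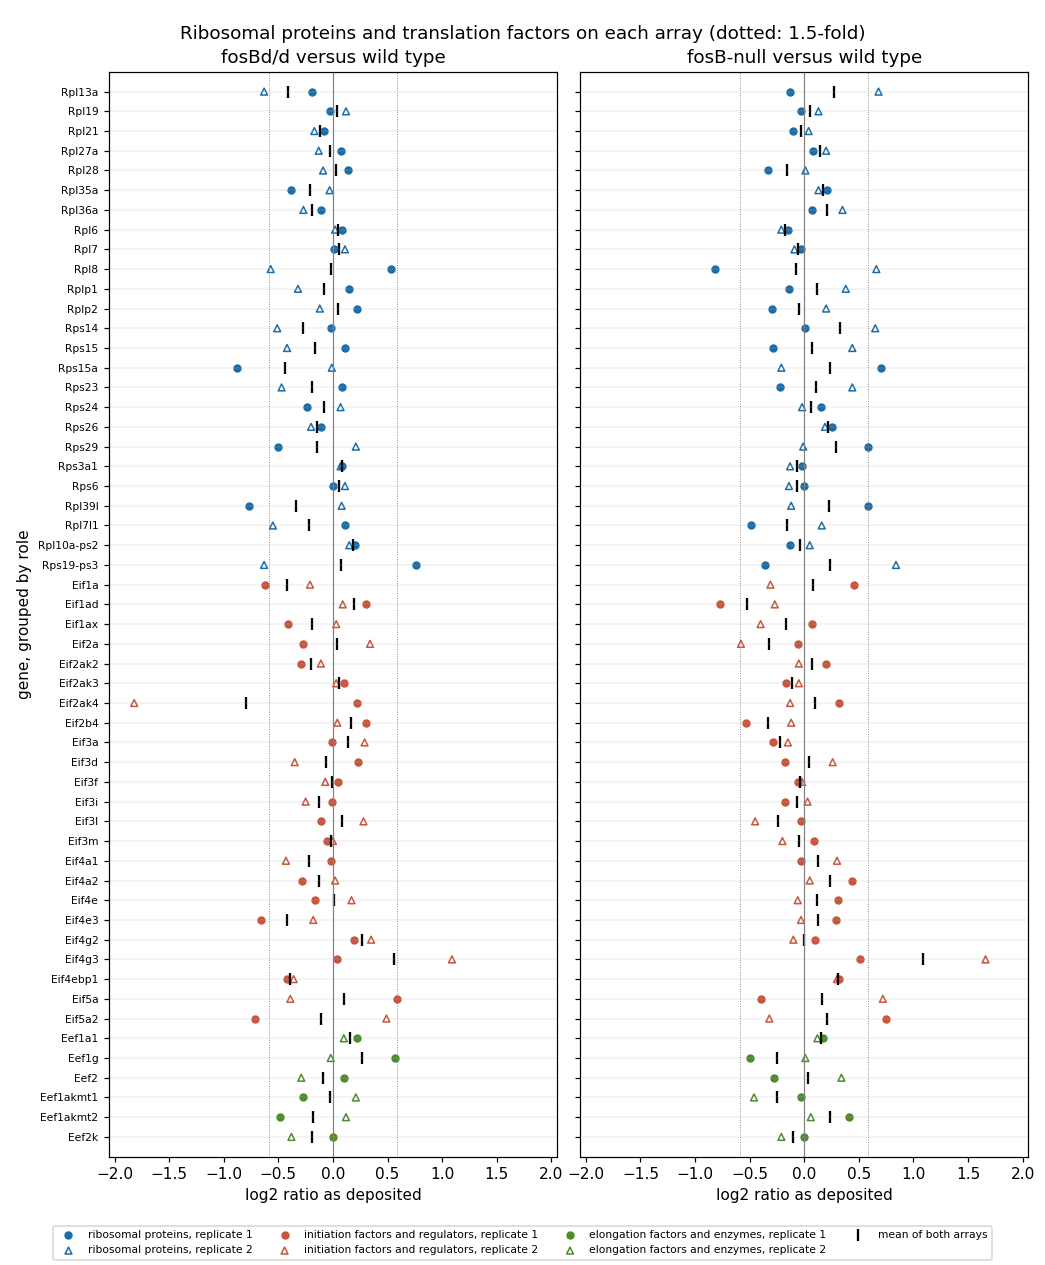
Log2 ratios as deposited (x axis) of the 54 genes (y axis, grouped by role) on each array, with fosBd/d at left and fosB-null at right. Filled circles are replicate 1, open triangles replicate 2, black ticks their mean and dotted lines 1.5-fold; 0 genes lie past a dotted line on the same side on both arrays of a mutant.

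Large subunit proteins stood close to zero. Over the 10 measured, the median was -0.03 in fosBd/d and 0.01 in fosB-null, with means between -0.41 and 0.06 in fosBd/d and between -0.18 and 0.27 in fosB-null. Rpl6 had log2 ratios of 0.08 and 0.02 on the fosBd/d arrays and -0.15 and -0.21 on the fosB-null arrays. The arrays of the mutants did not overlap, and both means were small, at 0.05 and -0.18. Rpl7 was at 0.01 and 0.11 in fosBd/d and at -0.03 and -0.09 in fosB-null. Rpl13a, which also takes part in silencing of inflammatory messengers, was negative on both fosBd/d arrays, at -0.19 and -0.63, and not one way on the fosB-null arrays, at -0.13 and 0.68. Its fosBd/d mean was -0.41 ± 0.31 (SD, n = 2; limma adjusted p = 0.321), the lowest of the large subunit. Rpl35a stood at -0.38 and -0.03 in fosBd/d and at 0.21 and 0.13 in fosB-null, and Rpl36a at -0.11 and -0.27 against 0.07 and 0.35.

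Rpl8, which lies near the site where peptide bonds form, had the widest gap between the arrays of a swap in the large subunit. It read 0.53 and -0.57 in fosBd/d and -0.82 and 0.66 in fosB-null. The means were -0.02 ± 0.78 and -0.08 ± 1.05 (SD, n = 2 each), far smaller than the gap between arrays. The stalk proteins Rplp1 and Rplp2, which help recruit the elongation factors, had the same shape, with 0.15 and -0.32 in fosBd/d and -0.14 and 0.38 in fosB-null for Rplp1. Rplp2 had 0.22 and -0.12 in fosBd/d and -0.30 and 0.20 in fosB-null.

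Small subunit proteins had a median of -0.15 in fosBd/d and 0.11 in fosB-null over 9 genes. On replicates 1 and 2 alone the median was -0.02 and -0.01 in fosBd/d, and 0.01 and -0.01 in fosB-null. Rps15a had the lowest fosBd/d mean among ribosomal proteins, -0.44 ± 0.62 (SD, n = 2), made of -0.88 on replicate 1 and -0.01 on replicate 2. On the fosB-null arrays it read 0.70 and -0.21. Its limma interval in fosBd/d, which leaves out the gap given to the dye term, ran from -0.78 to -0.11 before adjustment. The adjusted p in limma was 0.295. Rps14 was negative on both fosBd/d arrays (-0.02 and -0.51) and positive on both fosB-null arrays (0.01 and 0.65), and had the highest fosB-null mean of the ribosomal proteins, 0.33 ± 0.46 (SD, n = 2; adjusted p = 0.650). Rps29 followed at 0.58 and -0.01 in fosB-null, with -0.50 and 0.21 in fosBd/d. Rps26, which lines the exit channel of the messenger, read -0.11 and -0.20 in fosBd/d and 0.25 and 0.19 in fosB-null, so its swap arrays lay close together in each mutant.

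Rps6, the S6 kinase substrate, was measured by a pair of probes, which averaged 0.00 and 0.11 in fosBd/d and 0.00 and -0.14 in fosB-null. The intervals ran from -0.28 to 0.39 in fosBd/d and from -0.40 to 0.27 in fosB-null. Rps3a1 was as tight, with 0.08 and 0.07 in fosBd/d and -0.02 and -0.13 in fosB-null.

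Relatives of ribosomal proteins differed from one another in their spread between arrays. Rpl39l, a paralog of Rpl39, had -0.77 and 0.08 in fosBd/d and 0.58 and -0.12 in fosB-null. Rpl7l1, a relative of Rpl7, had 0.11 and -0.55 in fosBd/d and -0.49 and 0.16 in fosB-null. The probe listed under the pseudogene Rps19-ps3 had 0.76 and -0.63 in fosBd/d and -0.36 and 0.84 in fosB-null, whereas the one under Rpl10a-ps2 had 0.20 and 0.15 in fosBd/d and -0.13 and 0.05 in fosB-null. Ribosomal protein genes have many near-identical pseudogenes, and a cDNA probe may bind transcripts of either, so these names are uncertain.

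Among initiation factors, the cap-binding branch held a member whose arrays lay close together away from zero. Eif4ebp1, the inhibitor of Eif4e, read -0.42 and -0.36 in fosBd/d, a mean of -0.39 ± 0.05 (SD, n = 2) or 1.31-fold lower if the likely direction holds. On the fosB-null arrays it read 0.32 and 0.30, a mean of 0.31 ± 0.01 (SD, n = 2) or 1.24-fold. Both means exceeded the spread between their arrays, and neither passed limma over all features, with adjusted p = 0.303 in fosBd/d and 0.650 in fosB-null. A mean above its SD in size was found for 15 of 54 members in fosBd/d (27.8%) and 14 of 54 in fosB-null (25.9%). The share over all features was not computed. Eif4e itself had -0.16 and 0.17 in fosBd/d and 0.31 and -0.06 in fosB-null, with no common direction. Its relative Eif4e3 was negative on both fosBd/d arrays, at -0.66 and -0.18 (mean -0.42 ± 0.34, SD, n = 2; adjusted p = 0.303), and read 0.29 and -0.03 in fosB-null.

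Eif4g3, a scaffold that joins the cap-binding protein to the helicase, had the highest mean in both mutants. The values were 0.04 and 1.09 in fosBd/d and 0.51 and 1.66 in fosB-null, with replicate 2 far above replicate 1 each time. Means were 0.56 ± 0.74 and 1.09 ± 0.82 (SD, n = 2 each), the fosB-null mean being 2.12-fold, and the limma intervals, from -1.41 to 2.54 and from -0.89 to 3.06, covered zero widely. Eif4g2, a relative that lacks the cap-binding contact, read 0.19 and 0.35 in fosBd/d and 0.10 and -0.10 in fosB-null. The helicases Eif4a1 and Eif4a2 had fosBd/d means of -0.22 and -0.13, and fosB-null means of 0.13 and 0.24.

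The factor eIF2, which loads the initiator tRNA and is the target of stress kinases, had none of its own subunits among the 54 genes. Its kinases, a subunit of its exchange factor and Eif2a were measured, and they showed no shared direction. The kinase Eif2ak4 (GCN2, which senses uncharged tRNA) had the lowest fosBd/d mean of all members, -0.80 ± 1.44 (SD, n = 2). That mean rested on replicate 2 alone, at -1.82, beside 0.22 on replicate 1 and 0.32 and -0.13 on the fosB-null arrays. The kinase of endoplasmic reticulum stress, Eif2ak3, read 0.10 and 0.03 in fosBd/d and -0.17 and -0.05 in fosB-null. Eif2ak2, the kinase that responds to double-stranded RNA, had a pair of probes with fosBd/d means of -0.28 and -0.12 and fosB-null means of 0.25 and -0.11, so in fosB-null its probes differed in sign. Eif2b4, a subunit of the exchange factor that recharges eIF2, read 0.30 and 0.04 in fosBd/d and -0.53 and -0.12 in fosB-null. Eif2a, an alternative carrier of initiator tRNA, had -0.27 and 0.34 in fosBd/d and -0.06 and -0.58 in fosB-null.

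Among the genes named after eIF1 and eIF1A, Eif1ad, which carries an eIF1A-like domain, had the lowest fosB-null mean of all 54 genes. That mean was -0.52 ± 0.35 (SD, n = 2; limma adjusted p = 0.650), from -0.77 and -0.27. Eif1ad was the 1 member at an unadjusted p under 0.05 in fosB-null, and in fosBd/d it read 0.30 and 0.09. The eIF1A genes Eif1a and Eif1ax had -0.62 and -0.21, and -0.41 and 0.03, in fosBd/d. Subunits of eIF3, the scaffold on the small subunit, stayed between -0.13 and 0.14 by mean in fosBd/d and between -0.24 and 0.04 in fosB-null over 6 genes. Eif3f, whose start holds the longest run printed here, had 0.05 and -0.07 in fosBd/d and -0.06 and -0.02 in fosB-null.

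Elongation genes had means between -0.19 and 0.27 in fosBd/d and between -0.25 and 0.24 in fosB-null over 6 genes. Eef1a1, which delivers aminoacyl-tRNA, was positive on all 4 arrays, at 0.22 and 0.10 in fosBd/d and 0.17 and 0.12 in fosB-null. Means were 0.16 ± 0.08 and 0.15 ± 0.03 (SD, n = 2 each), with adjusted p = 0.433 and 0.696 in limma. Eef2, the translocase, read 0.10 and -0.29 in fosBd/d and -0.28 and 0.34 in fosB-null. Eef1g, a subunit of the exchange factor for eEF1A, read 0.57 and -0.02 in fosBd/d and -0.50 and 0.01 in fosB-null. The kinase Eef2k, which blocks Eef2, was listed at 0 on both replicates 1 and stood at -0.38 in fosBd/d and -0.21 in fosB-null on the replicates 2. The methyltransferases of eEF1A, Eef1akmt1 and Eef1akmt2, had fosBd/d means of -0.03 and -0.18 and fosB-null means of -0.25 and 0.24.

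Over the whole set in fosB-null, the median was 0.06 with quartiles of -0.08 and 0.17, beside 0.00 with quartiles of -0.13 and 0.17 over all features. On replicate 1 alone the median was -0.0273, of the other sign, and on replicate 2 alone it was 0.0094. Means ran from -0.52 to 1.09, and 53 of 54 were within 1.5-fold, against 95.2% of all features. In limma 0 of 54 passed (background 0.0%), with adjusted p values of at least 0.650, and 1 of 54 had an unadjusted p under 0.05, beside 6.07% of all features. The interval lay inside 2-fold for 52 of 54, against 75.8% of all features. With the sign turned, each fosB-null value would read the other way.

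By direction on both arrays, 10 members were positive and 13 negative in fosBd/d (18.5% and 24.1%, beside 21.7% and 22.3% of all features). In fosB-null, 10 were positive and 11 negative (18.5% and 20.4%, beside 18.7% and 18.9%). These shares were near the background. Past 1.5-fold on both arrays in 1 direction were 0 of 54 in fosBd/d (4.55% of all features) and 0 of 54 in fosB-null (1.06%). Past 2-fold there were again 0 of 54 in fosBd/d (1.58%) and 0 of 54 in fosB-null (0.224%). The spread between the arrays of a swap was similar to that of other features, with a median SD of 0.26 against 0.33 in fosBd/d and 0.27 against 0.28 in fosB-null.

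**Figure D2:**
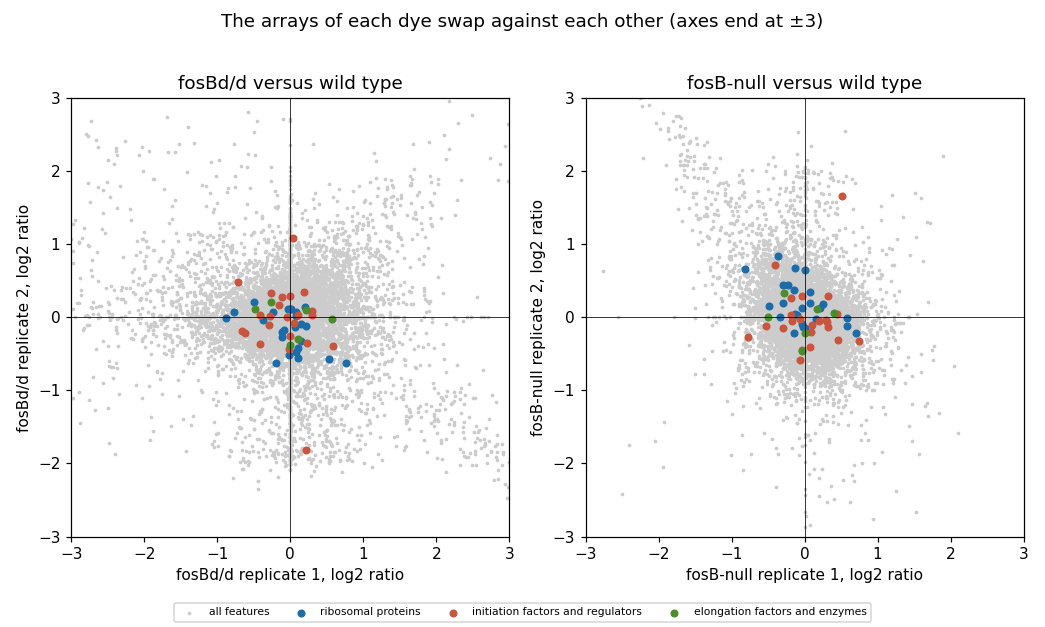
Log2 ratio on replicate 1 (x axis) against replicate 2 (y axis) for fosBd/d at left and fosB-null at right, with all 8939 features in grey and the 54 members coloured by class. The members cluster around the origin, and Eif2ak4 (0.22 and -1.82 in fosBd/d) and Eif4g3 (0.51 and 1.66 in fosB-null) stand apart.

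Whether the mutants differed from each other was asked in the same fit, as fosBd/d minus fosB-null. As deposited, this contrast compares the mutants only if both were set over wild type. Read by dye name, the same sign stands for opposite changes in the mutants. The contrast with the fosB-null sign turned is then the one that compares them. As deposited, 0 of 54 members passed limma (background 0.0%, smallest adjusted p = 0.353), and 8 of 54 had an unadjusted p under 0.05, beside 14.0% of all features. Their differences were -0.70 for Eif4ebp1, -0.69 for Rps15a, -0.68 for Rpl13a, -0.60 for Rps14, -0.57 for Rpl39l and -0.55 for Eif4e3, and 0.52 for Eef1g and 0.71 for Eif1ad. With the fosB-null sign turned, 0 of 54 had an unadjusted p under 0.05 (background 9.25%), and the smallest adjusted p was 0.516. Eif4ebp1 then stood at -0.08 (interval -0.56 to 0.39) and Eif1ad at -0.33 (interval -0.91 to 0.26). Positive on both fosBd/d arrays and negative on both fosB-null arrays were 6 of 54 members (11.1%, beside 6.43% of all features), among them Eif1ad, Eif2b4 and Rpl6. The opposite held for 5 of 54 (9.26%, beside 6.32%), among them Eif4ebp1 and Rps26. All 4 arrays were positive for 2 of 54, Eef1a1 and Eif4g3 (3.70%, beside 4.25%), and negative for 0 of 54 (beside 4.12%). With the sign turned, the highest difference was Eif4g3 at 1.65 (interval -1.15 to 4.45), and the lowest were Eif2ak4 at -0.70 and Rpl7l1 at -0.38.

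The same fit held a term for dye, whose median size over the members was 0.18, beside median sizes of 0.14 for fosBd/d and 0.14 for fosB-null. With the turning of the swaps undone, it is the mean channel ratio over the 4 arrays. Of the members, 15 of 54 had an unadjusted p under 0.05 for it, beside 22.8% of all features, and 0 passed after adjustment (background 0.0%, smallest adjusted p = 0.2). Rpl8 then read -0.53, -0.57, -0.82 and -0.66 on fosBd/d replicates 1 and 2 and fosB-null replicates 1 and 2, which is a dye term of -0.65 or 1.56-fold. Eif5a, a factor that relieves stalled ribosomes, read -0.59, -0.39, -0.40 and -0.72, and its isoform Eif5a2 lay on the other side at 0.71, 0.49, 0.75 and 0.32. All 4 arrays had the same sign for 20 of 54 members (37.0%, beside 25.3% of all features), 12 negative (beside 13.1%) and 8 positive (beside 12.1%). For 19 of 54 the dye term was larger in size than both mutant coefficients (35.2%, beside 31.5%). Among the ribosomal proteins 12 of 25 kept 1 sign on the 4 arrays.

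**Figure D3:**
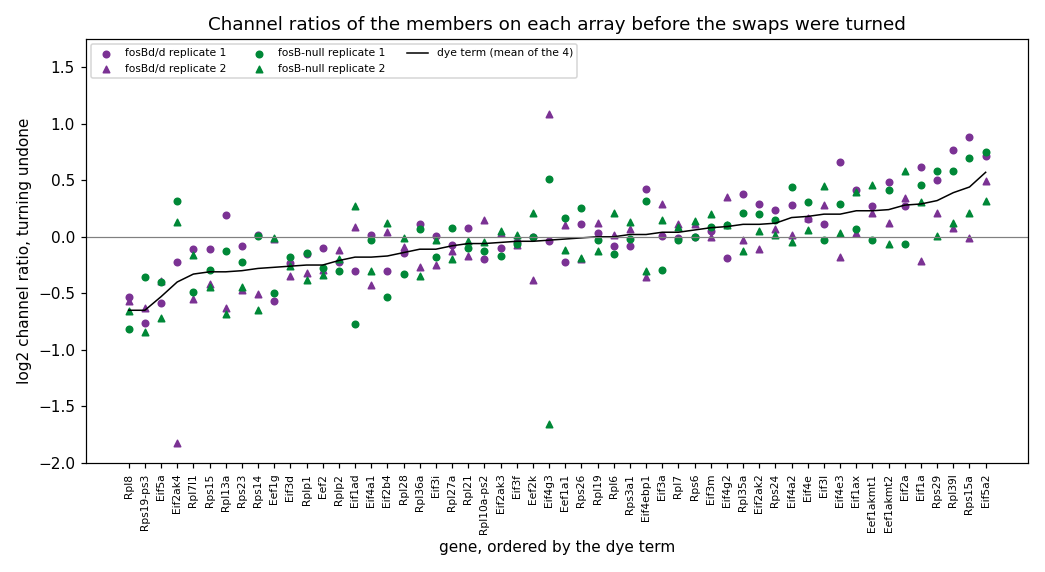
Log2 channel ratio of each member on each array with the turning of the swaps undone (y axis), ordered by the dye term (x axis, black line). Rpl8, Rps19-ps3 and Eif5a lie below zero and Eif5a2 above it on all 4 arrays, whereas the arrays of Eif4g3 and Eif2ak4 lie far apart.

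Members with and without a pyrimidine run near an annotated start were set side by side, and the difference was not tested. The 19 with it had a median of -0.03 in fosBd/d and 0.11 in fosB-null, and the 20 without it had -0.08 and -0.01. Of the genes printed above, Rps15a and Rpl13a lay at the negative end in fosBd/d, while Rps6, Eef1a1, Rplp2 and Eif3f had means within 0.2 of zero, and all of them hold the run.

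Other genes of the pathway were set beside the members. Mitochondrial ribosomal proteins, which build the separate ribosome of that organelle, had a median of -0.22 in fosBd/d over 28 genes, with 12 negative and 2 positive on both arrays (beside 22.3% and 21.7% of all features), and 0.04 in fosB-null. Mrpl19 was the 1 gene of the 28 at least 1.5-fold on both arrays (beside 4.55% of all features), at -0.81 and -0.70 in fosBd/d (adjusted p = 0.303) and 0.02 and 0.52 in fosB-null. Aminoacyl-tRNA synthetases had medians of -0.15 and -0.05 in fosBd/d and fosB-null (8 of 34 measured), and ribosome biogenesis and RNA polymerase I genes -0.06 and 0.03 (21 of 45). The mTOR and S6 kinase list had -0.15 and 0.04 (7 of 21), and its kinase Akt1 was positive on all 4 arrays, at 0.68 and 0.86 in fosBd/d (adjusted p = 0.291) and 0.47 and 0.43 in fosB-null. Termination and messenger-binding genes had -0.02 and -0.08 (7 of 15), integrated stress response targets -0.32 and 0.03 (6 of 14) and the Myc family -0.03 and -0.10 (7 of 9). None of these lists held a gene that passed limma.

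**Figure D4:**
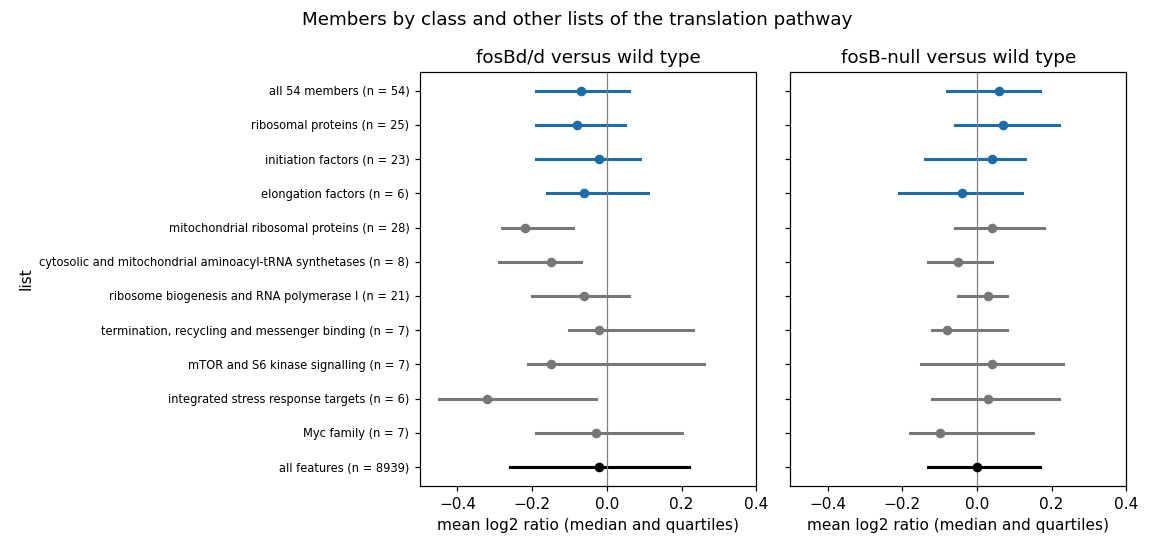
Median (dot) and quartiles (bar) over genes of the mean log2 ratio (x axis) for the 54 members and their classes in blue, other lists of the pathway in grey and all features in black, with fosBd/d at left and fosB-null at right. The member classes lie between -0.08 and -0.02 in fosBd/d, and the mitochondrial ribosomal proteins at -0.22.

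Markers of cell types were measured on the same arrays. In fosBd/d, 13 of 17 extraembryonic endoderm markers measured had means from 0.38 to 2.57 with 11 positive on both arrays (beside 21.7% of all features), 7 of 16 pluripotency markers ran from -0.82 to 0.45, and 7 of 11 fibroblast markers from -0.53 to 0.65. In fosB-null the ranges were -0.79 to 0.99, -0.50 to 0.24 and -0.85 to 0.60. Their part in the members' values was not tested, and since ratios carry no level, the identity of the cells could not be checked from them.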

How the data were processed

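Every deposited value was read as a log10 ratio of the dyes, the form in which Agilent Feature Extraction reports ratios; per the submitters' processing notes that software made the values. Its version, background correction, dye normalization and filters were not given in the sources used here. Deposited log10 values were multiplied by 3.32 to give log2 ratios, so each fold change rests on that base. The median of the 9480 values was 0.0 on each array, and their log2 SD ran from 0.436 to 0.824. Precision is limited by having 4 arrays.

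The platform annotation listed 1 gene for 6566 probes, several for 392 and none for 2522. Gene identifiers matched RefSeq for 6496 single-gene probes, and 70 kept their listed name. Another 13 probes list a gene of the naming rule beside another gene and were left out. The fit in limma 3.58.1 (R 4.3.3) used 8939 features and 4 arrays, with terms for fosBd/d, fosB-null and dye, two-sided tests and Benjamini-Hochberg adjustment. It had 1 residual degree of freedom and 1.31 prior degrees of freedom. On simulated data with the fitted noise it recovered 0% of 2-fold changes in fosBd/d, 0% of 4-fold changes and 58.5% of 8-fold changes. Changes smaller than 2-fold were not simulated. A count of 0 passing therefore does not show that the members were unchanged. Replicate numbers were assigned in the order of deposit.

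Genes were named by rank (the 8 highest and lowest means per mutant, the 5 highest and lowest differences), by 1.5-fold on both arrays, and from a short list of central factors. Rpl7, Rpl8, Rpl35a, Rpl36a, Rplp1, Rplp2, Rps26, Rps3a1, Eif2ak2, Eif2ak3, Eif3f, Eif5a2 and Eef1akmt2 were added after their values were seen. The members and lists were chosen with earlier results of these data known. Alternatives covered the dye term, each array, the averaging of probes, scale, centring, zeros and symbols.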

Additional observations from a re-analysis of the deposited data

Results flagged for a closer look

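In 13 members every array of one mutant lay on one side of zero and every array of the other mutant on the opposite side, under 1 of the possible directions of fosB-null. As deposited, fosBd/d minus fosB-null was positive for Eif1ad (0.71), Eif2b4 (0.50), Rpl6 (0.23), Eif2ak3 (0.18), Rps3a1 (0.15) and Rpl7 (0.12), which is 11.1% of members beside 6.43% of all features. It was negative for Eif4ebp1 (-0.70), Rps14 (-0.60), Rpl36a (-0.41), Rpl35a (-0.38) and Rps26 (-0.37), which is 9.26% beside 6.32%. With the fosB-null sign turned, Eef1a1 (0.31) and Eif4g3 (1.65) took this shape, 3.70% of members beside 4.25%. Negative on all 4 arrays as deposited were 0 of 54 members, beside 4.12%. In limma the adjusted p of the differences listed ran from 0.353 to 0.625 as deposited, and was 0.524 for Eef1a1 and 0.525 for Eif4g3 with the sign turned. Some of the arrays lay near zero, such as replicates 1 of fosBd/d and fosB-null at -0.02 and 0.01 for Rps14 and at 0.01 and -0.03 for Rpl7.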

How the results depend on the processing

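The count of members passing limma was 0 in both mutants and in their difference under every alternative run, but 0 of 8939 features passed in any of these comparisons as reported, so that count says nothing about stability. At an unadjusted p under 0.05, the 3 members in fosBd/d became 0 without the dye term and 1 with arrays scaled to one spread. The 8 in the difference became 1 without the dye term, 5 with arrays scaled, and 11 with the 13 several-gene probes added, an alternative chosen after seeing the data. Without a single array these counts were 0 to 1 in each. The median of the members on single arrays was -0.0253 to -0.0058 in fosBd/d and -0.0273 to 0.0094 in fosB-null. The other alternatives gave -0.0842 to -0.0602 in fosBd/d and 0.0442 to 0.0643 in fosB-null. Of 186 values of 31 named members with both arrays of a mutant kept, 2 moved by at least their SD, both Eif4ebp1 with arrays scaled (-0.35 and 0.35). With 1 array left out a mean cannot move by its SD, and there 34 of 62 means took the other sign on 1 of their arrays. Without fosBd/d replicate 1, Rps15a stood at -0.0071 in place of -0.4441 and Eef1g at -0.0191 in place of 0.2739. Without fosBd/d replicate 2, Eif2ak4 stood at 0.2165 in place of -0.8003. Without fosB-null replicate 1, Rps29 stood at -0.0082 in place of 0.2879. No paired analysis was possible because the labels give no replicate numbers, and those used here were assigned in the order of deposit. Fits without an array had no dye term.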

Other observations

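Another 13 probes list a ribosomal protein or translation factor together with some other gene, so they are not named. Their mean log2 ratios ran from -0.37 to 0.19 in fosBd/d (median -0.19, 4 of them positive and 6 negative throughout), and from -0.28 to 0.35 in fosB-null (median 0.13, with 4 positive and 2 negative). At least 1.5-fold on both arrays were 0 of 13 in either mutant.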
